A study of Mus musculus with 12 samples.

Results

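The thrombospondin family of the mouse, Thbs1, Thbs2, Thbs3, Thbs4 and Comp (also called thrombospondin-5), was followed through bulk RNA sequencing of mouse hearts. The members were chosen by gene symbol, and all 5 were found among the 25171 loci of the deposited count table. Thrombospondins are secreted, calcium-binding glycoproteins that bind collagens, proteases, growth factors and cell surface receptors without forming the main fibres of the matrix, which is why they are called matricellular. Thbs1 and Thbs2 form subgroup A, whose chains assemble as trimers and carry type 1 repeats, while Thbs3, Thbs4 and Comp form subgroup B, whose chains assemble as pentamers and lack those repeats. In adult hearts the family is best known for its induction by pressure overload, infarction and other injury.

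The study asked how a human NOTCH2NLC sequence with 98 GGC repeats, the kind of expansion found in neuronal intranuclear inclusion disease, acts on the heart when it is expressed everywhere or in cardiomyocytes alone. All 12 mice carried the conditional allele, NOTCH2NLC-(GGC)98 behind a loxP-flanked stop at Rosa26. E2a-tg mice also carried E2a-Cre (EIIa-Cre), which is active throughout the body, and were compared with E2a-control littermates lacking the Cre, all at postnatal day 30. Myh6-tg and Myh6-control mice were both given as carriers of Myh6-creERT2, a tamoxifen-dependent Cre driven by a cardiomyocyte promoter. From day 60 the Myh6-tg mice received 3 injections of tamoxifen at 75 mg/kg on alternate days and the Myh6-control mice received corn oil, and these hearts were taken at day 90. Each of the 4 groups held 3 hearts labelled as biological replicates. The Myh6 comparison therefore holds tamoxifen and the transgene together, and these cannot be told apart.

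Libraries held 38343106 to 50969834 counts. Replicate 1 of each group carried 4224 to 7307 counts of Y-linked genes and the other 8 hearts 0 to 2, so sex followed the replicate number in all groups. Esr1, which can collect reads from the estrogen receptor part of creERT2, stood at 1030 to 2330 CPM (counts scaled to library size) in Myh6-control hearts and at 1.00 to 2.52 in Myh6-tg hearts, close to the 0.408 to 1.23 of the E2a hearts. That pattern differs from labels that give both Myh6 groups the same Cre, and the group names below are those of the labels. Sqstm1, encoding the inclusion protein p62, rose in E2a-tg by 1.52 ± 0.18 on the log2 scale (SE, edgeR adjusted p = 0.0135) and in Myh6-tg by 1.54 ± 0.31 (adjusted p = 0.0166). Cardiomyocyte markers summed to 9498 to 45360 CPM and brain markers to 6.77 to 15.6 CPM over the 12 hearts, where one protocol text names brain as the tissue and all other labels name heart.

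Each member has its own locus. On GRCm38, Thbs1 lies at chr2:118111876-118127133 on the plus strand, Thbs2 at chr17:14665500-14694235 on the minus strand, Thbs3 at chr3:89215180-89226837 on the plus strand, Thbs4 at chr13:92751590-92794818 on the minus strand and Comp at chr8:70373558-70382066 on the plus strand. The main transcripts of subgroup A were the longest, at 5848 bases for Thbs1 and 5895 for Thbs2, against 3190 for Thbs3, 3198 for Thbs4 and 2416 for Comp. Because the members are paralogs, the longest identical stretch between any pair of main transcripts was found, since reads inside such a stretch could be assigned to either gene. It was 26 bases, in Thbs1 with Thbs2 and again in Thbs4 with Comp, and 15 to 21 bases in the other 8 pairs. These stretches, all in coding sequence, are shown in capitals with 15 flanking bases on each side, which already differ between the genes of a pair.
Thbs1: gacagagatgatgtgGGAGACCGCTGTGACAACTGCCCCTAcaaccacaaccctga
Thbs2: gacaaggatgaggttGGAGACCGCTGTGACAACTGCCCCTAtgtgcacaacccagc
Thbs4: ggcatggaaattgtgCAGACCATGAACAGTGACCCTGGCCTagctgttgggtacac
Comp: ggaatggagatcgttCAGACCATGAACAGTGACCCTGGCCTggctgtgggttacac
Thbs1 and Thbs3 overlap genes on the opposite strand. Thbs3 shares 318 exon bases with Mtx1, a mitochondrial import gene, and Thbs1 shares 208 with the noncoding Gm29233. The library kit was not stated to keep strand, so reads from these bases cannot be told apart.

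The RefSeq promoters for GRCm38.p6 included 3 members, Thbs2, Thbs3 and Thbs4, and had no entry for Thbs1 and Comp. Only these 3 could therefore be shown. The 200 bases before each start are printed on the gene's own strand, from chr17:14694263-14694462 (minus strand) for Thbs2, chr3:89214980-89215179 (plus strand) for Thbs3 and chr13:92794819-92795018 (minus strand) for Thbs4. Capitals mark matches on either strand to 6 motifs, searched as the letters TGANTCA for the factor AP-1, GTCTG for SMAD proteins, TATAA for the TATA box, CCAAT for the box of that name, GGGCGG for the GC box and CATTCC for TEAD factors.
Thbs2 promoter: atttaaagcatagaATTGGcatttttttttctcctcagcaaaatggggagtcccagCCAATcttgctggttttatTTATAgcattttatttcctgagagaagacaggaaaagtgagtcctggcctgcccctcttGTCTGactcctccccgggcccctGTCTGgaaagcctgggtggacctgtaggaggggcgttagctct
Thbs3 promoter: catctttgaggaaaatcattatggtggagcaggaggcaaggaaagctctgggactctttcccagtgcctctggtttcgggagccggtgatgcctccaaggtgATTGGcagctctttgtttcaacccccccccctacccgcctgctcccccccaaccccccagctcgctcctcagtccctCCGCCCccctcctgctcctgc
Thbs4 promoter: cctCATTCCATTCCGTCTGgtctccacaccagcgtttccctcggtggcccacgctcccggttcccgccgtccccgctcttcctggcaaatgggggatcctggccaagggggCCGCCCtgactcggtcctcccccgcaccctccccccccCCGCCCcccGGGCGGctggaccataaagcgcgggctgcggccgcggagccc
In the 250 bases searched, the 3 promoters did not share one motif set. SMAD letters stood in Thbs2 at -66 and -43 and in Thbs4 at -226 and -186, counted as the leftmost base before the start. The TEAD letters occurred in Thbs4 alone of the 3, at -197 and -192, where both matches overlap by 1 base and adjoin the SMAD match. GC boxes were found in Thbs4 at -89, -51 and -42 and in Thbs3 at -21, CCAAT boxes in Thbs2 at -186 and -144 and in Thbs3 at -98, and TATA letters in Thbs2 at -125. No AP-1 letters were found in these windows. Of all 32851 promoters of the same length, 42.2% held the SMAD letters, 12.6% TEAD, 32.7% the GC box, 33.8% the CCAAT box, 22.8% TATA and 6.75% AP-1, so all but TEAD and AP-1 are common. A match is only a run of letters and shows no binding.

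Levels of the members were first compared within groups in FPKM, a unit scaled to library size and transcript length. In E2a-control hearts Thbs2 led, at 4.98 ± 0.558 FPKM (SD, n = 3), above all other members in every heart. Thbs1 (2.06 ± 1.10), Thbs3 (1.79 ± 0.257), Thbs4 (1.48 ± 0.464) and Comp (1.29 ± 0.118) followed, and the ranges of neighbours in that order overlapped. In Myh6-control hearts Thbs1 (5.29 ± 2.15 FPKM) and Thbs2 (4.58 ± 1.32) overlapped at the top, above Thbs3 (2.60 ± 0.833), Thbs4 (2.26 ± 0.839) and Comp (1.43 ± 0.691). The control hearts of both models thus held mostly subgroup A.
In E2a-tg hearts the order was Thbs2 (9.56 ± 2.38 FPKM), Thbs1 (8.50 ± 2.91), Thbs4 (4.30 ± 1.96), Thbs3 (3.68 ± 1.57) and Comp (1.95 ± 0.391), and only Thbs3 and Comp did not overlap as neighbours. In Myh6-tg hearts Thbs4 (189 ± 153 FPKM) and Comp (112 ± 110) had the highest means, with SDs nearly as large as the means, and overlapped with each other and with Thbs1 (59.4 ± 11.3). Thbs2 (36.3 ± 8.22) and Thbs3 (10.8 ± 3.30) stood below Thbs1 in every heart.

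**Figure D1:**
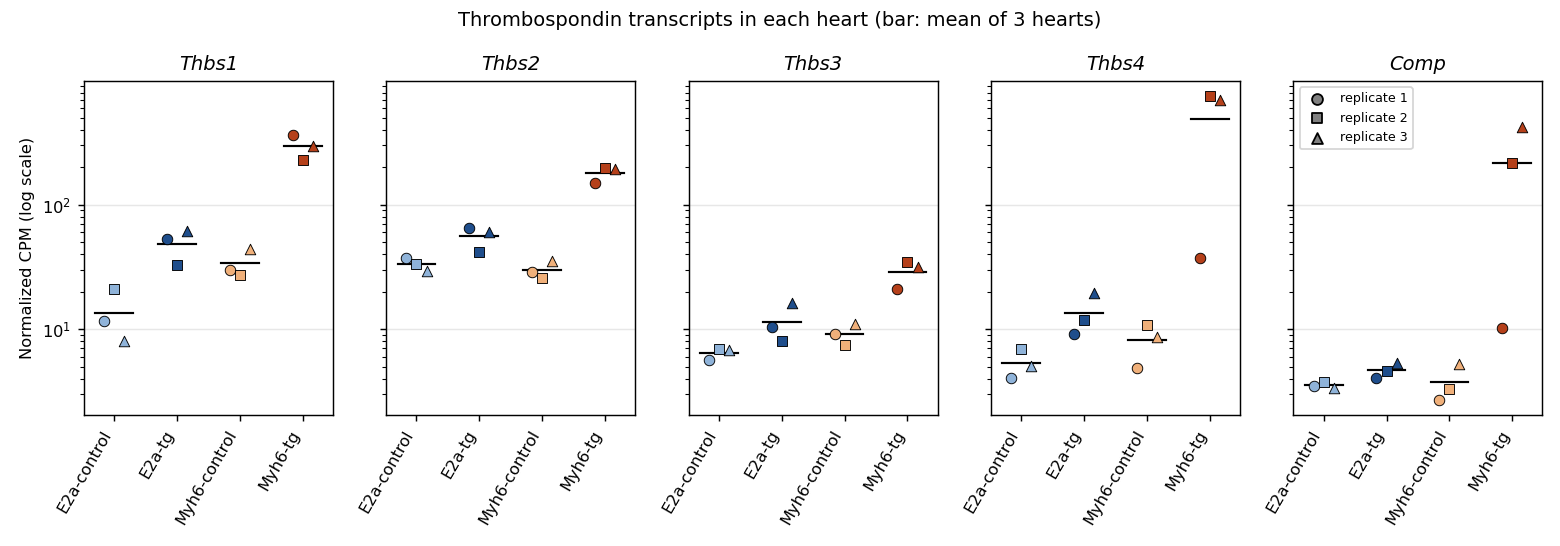
Normalized CPM on a log axis for each member (panels) in each heart (symbols, by replicate number), by group; bars are means of 3 hearts. Every tg heart lies above every control heart of its model, and in Myh6-tg replicate 1 (circle) Thbs4 and Comp lie far below the other two hearts.

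Subgroup A is described first across hearts, in CPM normalized to the TMM-scaled library size, a scale on which one gene can be compared between hearts. Thbs1, an inhibitor of vessel growth and an activator of latent TGF-beta, stood at 11.7, 20.9 and 7.96 CPM in E2a-control replicates 1 to 3 and at 52.7, 32.7 and 61.0 in E2a-tg. In Myh6-control it stood at 29.9, 27.3 and 44.5 CPM, and in Myh6-tg at 365, 230 and 297. The groups did not overlap in either model, and the lowest Myh6-tg heart lay well above all other hearts. Replicate 1, the lowest Myh6-tg heart for the other 4 members, was the highest for Thbs1.
Thbs2, which shapes collagen fibrils and also restrains vessel growth, stood at 37.2, 33.5 and 29.3 CPM in E2a-control and at 65.2, 41.3 and 60.4 in E2a-tg. It was 28.7, 25.8 and 35.1 CPM in Myh6-control and 149, 198 and 195 in Myh6-tg. Thbs2 was the most even member among the Myh6-tg hearts, with the highest heart 1.33-fold above the lowest.

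In subgroup B, Thbs3, known for a role in skeletal maturation, stood at 5.65, 6.96 and 6.79 CPM in E2a-control and at 10.4, 7.96 and 16.1 in E2a-tg. It was 9.07, 7.43 and 11.0 CPM in Myh6-control and 20.9, 34.6 and 31.4 in Myh6-tg. Groups did not overlap in either model, though E2a-tg replicate 2 lay close to the E2a-control hearts.
Thbs4, a tendon and muscle protein that is strongly induced in injured hearts and takes part in an Atf6-dependent endoplasmic reticulum response, stood at 4.08, 6.93 and 5.03 CPM in E2a-control and at 9.12, 11.9 and 19.4 in E2a-tg. In Myh6-control it was 4.86, 10.8 and 8.67 CPM. In Myh6-tg it was 37.4 in replicate 1 but 747 and 694 in replicates 2 and 3, a 19.9-fold spread within one group. By FPKM, Thbs4 ranked 4068 of 25171 loci in Myh6-tg replicate 1, and 207 and 194 in the other hearts.
Comp, a pentameric cartilage and tendon protein that binds collagens, showed the same split. It stood at 3.48, 3.75 and 3.34 CPM in E2a-control, at 4.02, 4.59 and 5.39 in E2a-tg and at 2.69, 3.31 and 5.27 in Myh6-control. In Myh6-tg it was 10.2 in replicate 1 and 219 and 419 in replicates 2 and 3, a 41.2-fold spread. Even replicate 1 lay above all Myh6-control hearts for Thbs4 and Comp. Replicate 1 also differed in sex from replicates 2 and 3, so sex and other differences of this single heart cannot be told apart.

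The E2a comparison asked how ubiquitous expression changed the family at day 30. Thbs1, Thbs2 and Thbs4 rose, so 3 of 5 members were called higher at an adjusted p under 0.05 (edgeR quasi-likelihood test, Benjamini-Hochberg over 14908 genes), where 8.65% of all genes tested were called higher and 8.3% lower. Thbs1 rose most, with a log2 fold change of 1.85 ± 0.35 (SE, adjusted p = 0.0194), followed by Thbs4 at 1.33 ± 0.30 (adjusted p = 0.0269) and Thbs2 at 0.73 ± 0.17 (adjusted p = 0.0295). Thbs3, at 0.82 ± 0.25, missed the threshold (adjusted p = 0.0533), as did Comp, at 0.40 ± 0.20 (adjusted p = 0.183). All 5 members had every E2a-tg heart above every E2a-control heart, a pattern shown by 20.3% of all genes tested.
Leaving out some single hearts removed these calls, as it did nearly all calls over all genes. No member was called by edgeR without E2a-control replicate 1 or 3, or without E2a-tg replicate 1 or 3, fits in which 0, 1, 0 and 133 of all genes were called. Thbs1 then stood at 1.57 to 1.79 on the log2 scale, with an adjusted p of 0.0653 to 0.0883. Without E2a-tg replicate 2, the least changed heart for Thbs1, Thbs2 and Thbs3, 4 members were called among 4079 genes, against 2527 with all hearts, and Thbs3 then stood at 1.02 ± 0.21 (adjusted p = 0.0111). Under DESeq2 the count was also 4, among 3539 genes, Thbs3 having an adjusted p of 0.0164. All 5 fold changes stayed above 0 in each of these fits.
Macrophage markers moved with this comparison. All 8 on that list were called higher, and their summed level was 848 to 1099 CPM in E2a-tg against 393 to 598 in E2a-control hearts. In whole tissue, more cells of a type and more RNA per cell cannot be told apart, and the part of these cells, or of those below, in the values of the members was not tested. The activated fibroblast sum was 231 to 495 CPM in E2a-tg and 238 to 475 in E2a-control, with 1 of 8 markers called higher. The platelet sum was 27.5 to 31.7 against 16.1 to 21.0 CPM, with 2 of 5 tested markers called higher. Pf4 was the largest part of it, at 21.1, 17.8 and 22.7 CPM in E2a-tg against 9.47, 14.2 and 10.5 in E2a-control. Ppbp, the next platelet marker, overlapped between the groups, at 3.72 to 3.85 against 1.79 to 5.53 CPM. Resting fibroblast markers summed to 3859 to 5417 CPM in E2a-tg against 2573 to 3058 in E2a-control, with 4 of 8 called higher. Cardiomyocyte markers summed to 18253 to 33127 against 37654 to 45360 CPM, with 2 of 8 called lower, and endothelial markers to 868 to 974 against 1100 to 1272 CPM, with 3 of 8 called lower.

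In the Myh6 comparison, at day 90, the estimated fold changes of all 5 members were larger than in the E2a comparison. Tamoxifen, the transgene and the unequal Esr1 levels go together between these 2 groups and cannot be told apart. All 5 were called higher by the same edgeR test, where 8.96% of the 15298 genes tested were called higher and 9.38% lower. Thbs4 (log2 fold change 5.93 ± 1.06, adjusted p = 0.0116) and Comp (5.84 ± 1.18, adjusted p = 0.0163) ranked 34 and 35 of all genes by fold change. Thbs1 rose by 3.13 ± 0.28 (8.76-fold, adjusted p = 0.00165), Thbs2 by 2.60 ± 0.21 (6.05-fold, adjusted p = 0.00134) and Thbs3 by 1.66 ± 0.25 (3.16-fold, adjusted p = 0.00712). When the adjusted p had to lie under 0.01 and the change to reach 1 on the log2 scale, Thbs1, Thbs2 and Thbs3 were called, where 1.92% of all genes were called higher. The groups did not overlap for any member, as for 20.6% of genes tested.
Thbs4 and Comp thus had the largest fold changes and the least certain ones, while Thbs2 had a smaller change with the smallest SE. Without Myh6-tg replicate 1 their log2 fold changes were 6.47 ± 0.36 and 6.40 ± 0.41 (adjusted p = 0.000344 and 0.000397). Without Myh6-control replicate 1, Thbs4 (adjusted p = 0.0593) and Comp (adjusted p = 0.0770) lost their calls, and Comp also lost its call without control replicate 2 (0.0674) or 3 (0.0576). Comp moved to 4.93 ± 1.05 without Myh6-tg replicate 3. Blocking on the replicate number gave smaller changes for Thbs4 and Comp, at 5.23 ± 0.77 and 4.98 ± 1.00, and stayed called. Thbs1, Thbs2 and Thbs3 were called whichever heart was left out.

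**Figure D2:**
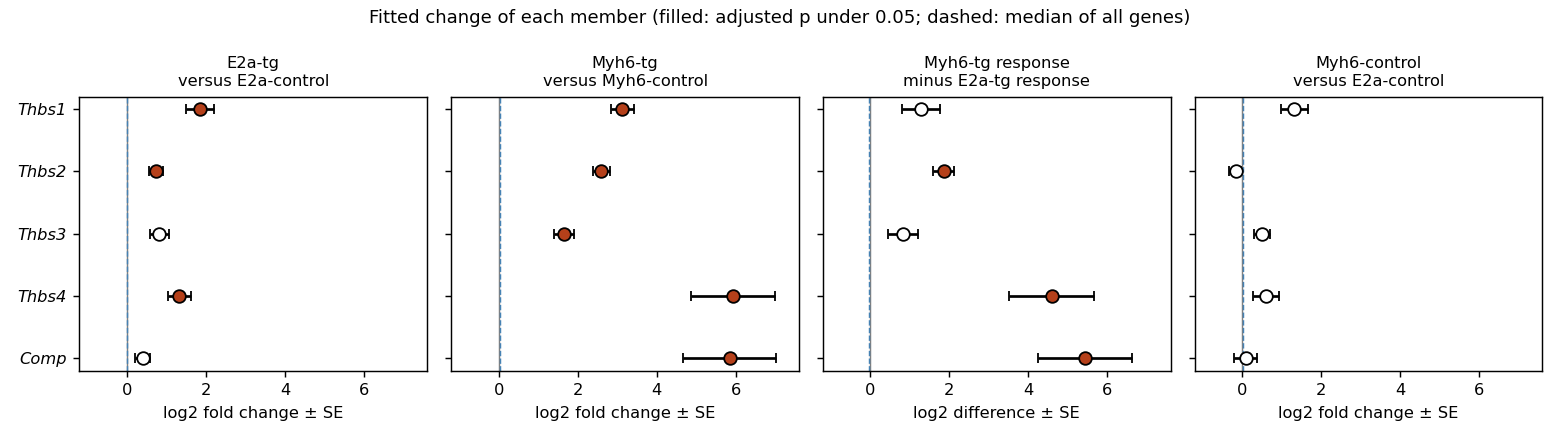
Fitted log2 fold change of each member ± SE in the edgeR fits of both transgene comparisons, in the difference between their responses and between control groups; filled points have an adjusted p under 0.05 and the dashed line is the median of all genes. Thbs4 and Comp have the largest values and widest errors in Myh6-tg, at 5.93 ± 1.06 and 5.84 ± 1.18.

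Whether the responses of the models differed was tested as the difference of the log2 fold changes over all 12 hearts. Thbs2, Thbs4 and Comp had larger responses in Myh6-tg, so 3 of 5 members were called, where 3.92% of 15929 genes were called in either direction (edgeR, Benjamini-Hochberg). The difference was 1.86 ± 0.27 for Thbs2 (adjusted p = 0.00582), 4.59 ± 1.08 for Thbs4 (adjusted p = 0.0357) and 5.43 ± 1.19 for Comp (adjusted p = 0.0263). For Thbs1 it was 1.28 ± 0.48 (adjusted p = 0.167) and for Thbs3 0.83 ± 0.37 (adjusted p = 0.249), which does not show equal responses. The call for Thbs2 held in all 12 fits that left out a heart, with adjusted p from 0.00126 to 0.0228. That of Thbs4 was kept only without Myh6-tg replicate 1 (adjusted p up to 0.101 in the other 11), and that of Comp in 3 of the 12, without Myh6-tg replicate 1 or 2 or Myh6-control replicate 3 (highest adjusted p = 0.0779). Age, Cre line and tamoxifen differed between the models along with the cells that express the transgene, and Esr1 differed between the Myh6 groups. These cannot be told apart.

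The control groups were compared to see where the family stood in the separate animals, at day 30 and day 90, that each model was set against. Age, the labelled Myh6-creERT2 allele, the corn oil injections and the Esr1 level differed together between them and cannot be told apart. No member was called between Myh6-control and E2a-control hearts by edgeR, where 5 of 14990 genes (0.0334%) were called and 1700 had an unadjusted p under 0.05. Thbs1 was 1.33 ± 0.34 higher on the log2 scale in Myh6-control (unadjusted p = 0.00390, adjusted p = 0.192), and for Thbs1 and Thbs3 every Myh6-control heart lay above every E2a-control heart, as for 8.72% of all genes tested. DESeq2 called Thbs1 (adjusted p = 0.00308), among 429 genes. Thbs3 differed by 0.51 ± 0.21 (unadjusted p = 0.0401), Thbs4 by 0.60 ± 0.32, Comp by 0.10 ± 0.29 and Thbs2 by -0.16 ± 0.16.

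These unequal responses changed the make-up of the family. Summed FPKM of the 5 members was 11.6 ± 2.09 in E2a-control, 28.0 ± 8.26 in E2a-tg, 16.2 ± 5.31 in Myh6-control and 407 ± 260 in Myh6-tg (SD, n = 3). Subgroup A held 55.5% to 64.9% of that sum in the control hearts and 60.8% to 72.2% in E2a-tg. In Myh6-tg it held 79.6% in replicate 1 but 17.8% and 17.3% in replicates 2 and 3, where Thbs4 and Comp made up most of the family. Myh6-tg replicate 1 thus had the highest subgroup A share of all 12 hearts, and the other Myh6-tg hearts the lowest.

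**Figure D3:**
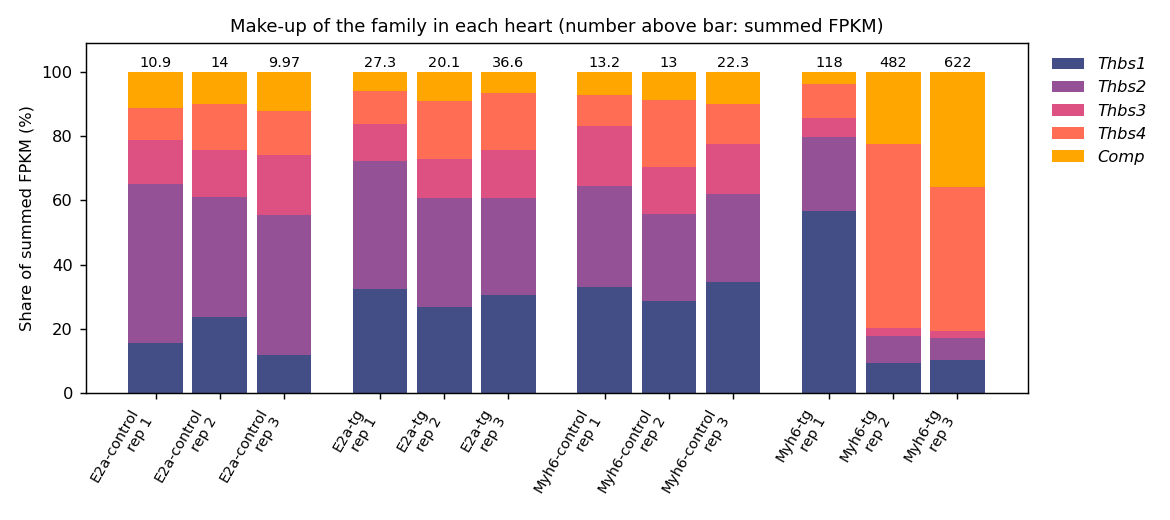
Share of each member in the summed FPKM of the family (%), one bar per heart, with the summed FPKM above each bar. The Thbs4 and Comp segments fill most of Myh6-tg replicates 2 and 3, whereas Myh6-tg replicate 1 keeps a control-like order led by Thbs1 and Thbs2.

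Cell type markers also differed among the Myh6-tg hearts, where replicate 1 again differs from the others in sex as well. The 8 activated fibroblast markers summed to 1287 CPM in replicate 1 and to 3440 and 3623 in replicates 2 and 3, against 281 to 393 in Myh6-control, and 5 of the 8 were called higher. Postn, at 732, 2064 and 2035 CPM in replicates 1 to 3, and Cilp, at 177, 935 and 1085, made up most of this difference. Ltbp2, Meox1 and Cthrc1 were also lowest in replicate 1. Acta2, at 223, 144 and 121 CPM, Fap and Runx1 went the other way and were highest in replicate 1. The tendon and cartilage sum was 27.0 CPM in replicate 1 and 197 and 291 in the others, against 11.8 to 18.3 in Myh6-control. Most of that split came from Fmod, a collagen-binding proteoglycan, at 2.18, 161 and 256 CPM in replicates 1 to 3, and without it the sums were 24.8, 36.5 and 34.6, against 10.2 to 15.1 in Myh6-control. Scx, a tendon transcription factor, was highest in replicate 1, at 22.7, 18.0 and 13.8 CPM. Single markers in this paragraph were named after their values were seen. The tendon gene Tnmd was at 0 in replicate 1 and in all Myh6-control hearts, and at 5.14 and 4.14 CPM in replicates 2 and 3, while the cartilage genes Acan and Col2a1 stayed at or below 0.282 CPM in all Myh6-tg hearts. Thbs4 and Comp were high in the hearts where these 2 sums were high. The match was not particular to them, as the resting fibroblast sum given below was also lowest in replicate 1. So was the smooth muscle and pericyte sum, at 898, 1548 and 1387 CPM, against 897 to 1315 in Myh6-control. Most of that last split came from Cnn1 alone, at 19.3, 598 and 505 CPM. Rgs5, the largest part of the sum, stood at 596, 646 and 576 CPM. Myh11, Tagln and Kcnj8 were lowest in replicate 1, while Cspg4, at 38.2, 23.0 and 21.8 CPM, and Notch3 were highest there. Of these markers, 1 of 8 was called higher and 1 lower.
Cardiomyocyte, macrophage and platelet sums were highest in replicate 1. Cardiomyocyte markers summed to 31277 CPM in replicate 1 and to 12702 and 9498 in replicates 2 and 3, against 29619 to 40137 in Myh6-control, and 4 of 8 were called lower. The sum of replicate 1 joins markers that moved in opposite directions. Tnnt2 (9673 CPM, against 3191 to 4768), Mybpc3 and Ryr2 lay above all Myh6-control hearts. Myh6 (2903 CPM, against 7204 to 10511), Tnni3, Myl2 and Myl3 lay below all of them, and Actc1 lay within their range. Macrophage markers summed to 1959 CPM in replicate 1 and to 868 and 841 in the others, against 765 to 1270 in Myh6-control, with 0 of 8 called by edgeR (3 at an unadjusted p under 0.05, median log2 fold change 0.54). Platelet markers summed to 53.5 CPM in replicate 1 and to 14.4 and 15.9 in the others, against 23.2 to 30.7 in Myh6-control. Of the 7 tested, 0 were called higher and 1 lower. Pf4 made up 46.2 CPM of the replicate 1 sum, against 15.7 to 23.5 CPM in Myh6-control. Gp1ba and Gp1bb, at 2.90 and 0.320 CPM there, also lay above all Myh6-control hearts. Ppbp stood at 1.17 CPM in replicate 1 and 0.174 and 0.662 in the others, below the 2.76 to 4.71 of Myh6-control. Resting fibroblast markers were lowest in replicate 1, summing to 2351, 5027 and 5606 CPM in replicates 1 to 3, against 3105 to 3692 in Myh6-control, with 3 of 8 called higher. Thbs1, which platelets and macrophages can also carry, was 365 CPM in replicate 1 and 230 and 297 in the others. The part of these cell types in the values of the members was not tested.

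**Figure D4:**
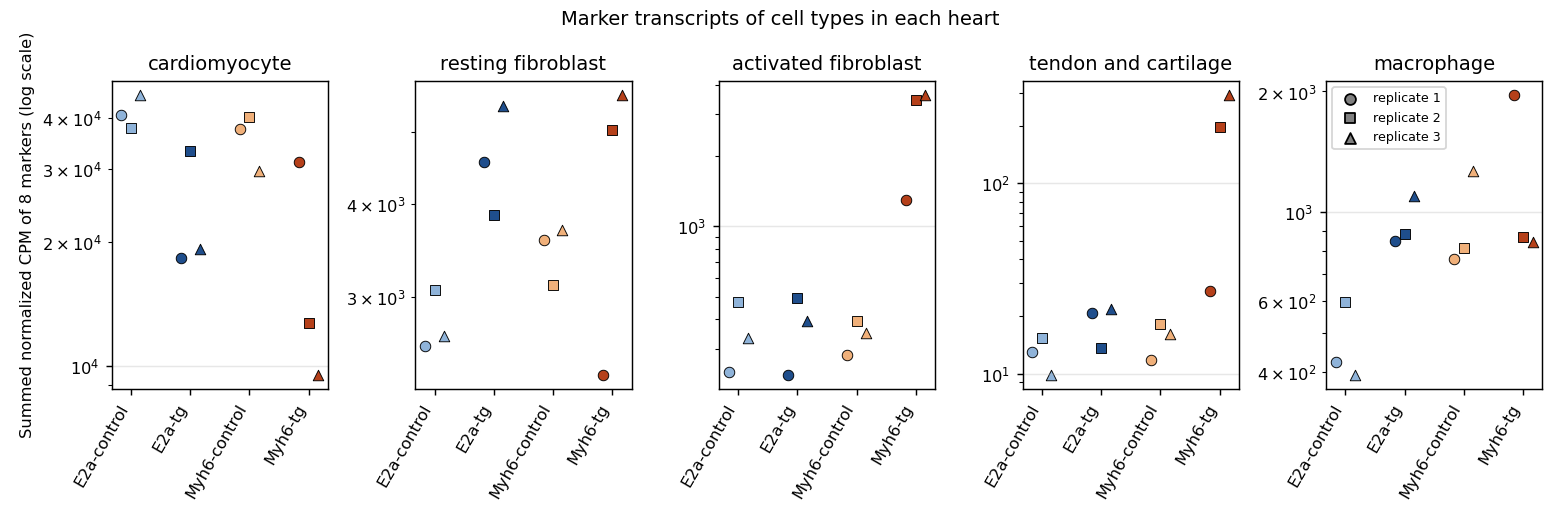
Summed normalized CPM of 8 marker genes for each of 5 cell types (panels, log axes with separate ranges) in each heart, by group, with symbols for the replicate number. Among the Myh6-tg hearts, replicate 1 (circle) has the lowest activated fibroblast (1287) and tendon and cartilage (27.0) sums and the highest cardiomyocyte (31277) and macrophage (1959) sums.

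The partners of the family were read from lists of genes in the same pathways, whose counts stand beside the 8.96% of all genes called higher and 9.38% lower in Myh6-tg, and 8.65% and 8.3% in E2a-tg. Differences between the models were tested for single genes and not for lists. Of 31 receptors and surface partners tested, 8 rose and 1 fell in Myh6-tg (median log2 fold change 0.27, against 0.03 over all genes), and 5 rose and 3 fell in E2a-tg (0.19 against 0.02). In Myh6-tg, Itga5, the fibronectin receptor chain, rose from 63.2 ± 6.10 to 368 ± 35.5 CPM (mean ± SD of 3 hearts), a log2 change of 2.54 (adjusted p = 0.00111). Itgb1, the common beta chain, rose by 1.19 (adjusted p = 0.0106) and Itgb3, part of the integrin that binds the RGD site of thrombospondins, by 1.53 (adjusted p = 0.0370). Lrp1, which takes up Thbs1 and Thbs2 complexes, rose in both models, by 1.19 (adjusted p = 0.0270) in Myh6-tg and 0.80 (adjusted p = 0.0262) in E2a-tg. The classical Thbs1 receptors were not called. Cd36 stood at 0.16 on the log2 scale (adjusted p = 0.736) in Myh6-tg and 0.52 (adjusted p = 0.128) in E2a-tg, and Cd47 at 0.27 (adjusted p = 0.417) and 0.19 (adjusted p = 0.217). Cacna2d1, the calcium channel subunit that binds thrombospondins, fell by 0.92 on the log2 scale in E2a-tg (adjusted p = 0.0227) and stood at -0.07 in Myh6-tg (adjusted p = 0.789), and the difference between the responses was not called (adjusted p = 0.0868). In E2a-tg the leukocyte integrins Itgam (1.51, adjusted p = 0.0219) and Itgb2 (1.34, adjusted p = 0.0135) rose, and Itga6 fell by 1.08 (adjusted p = 0.0316). Sdc4, a surface proteoglycan, rose in Myh6-tg by 0.77 (adjusted p = 0.0232).

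TGF-beta genes come next, because Thbs1 can release the active cytokine from its latent form. Of 28 tested, 9 rose and 1 fell in Myh6-tg (median 0.56), and 5 rose and 2 fell in E2a-tg (median 0.24). Tgfb2 rose in both models, by 2.12 (adjusted p = 0.0378) in Myh6-tg and 2.29 (adjusted p = 0.0157) in E2a-tg, while Tgfb1 (0.84, adjusted p = 0.0228) and Tgfb3 (1.21, adjusted p = 0.0252) were called in Myh6-tg only and their differences between models were not (adjusted p = 0.130 and 0.129). Ctgf, the older name of the TGF-beta target Ccn2, rose by 3.47 (adjusted p = 0.00875) in Myh6-tg and by 1.97 (adjusted p = 0.0135) in E2a-tg. Ltbp2, a latent TGF-beta binding protein family member, rose from 4.28 ± 0.651 to 176 ± 74.9 CPM in Myh6-tg (5.36, adjusted p = 0.00102), more than in E2a-tg (difference 4.43, adjusted p = 0.00389). Itgb6, the epithelial chain of an integrin that activates TGF-beta, fell by 2.19 (adjusted p = 0.0245) in E2a-tg and fell by 4.64 (adjusted p = 0.00699) in Myh6-tg.

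Thbs4 is known to engage the Atf6 arm of the endoplasmic reticulum response. Of 29 genes of that list, 2 rose and 0 fell in Myh6-tg (median 0.10), and 1 rose in E2a-tg (median 0.12), with 7 at an unadjusted p under 0.05 in each. Atf6 itself was 95.8 ± 13.1 CPM in Myh6-control and 122 ± 4.99 in Myh6-tg (0.35, adjusted p = 0.199). The chaperone Hspa5 stood at -0.27 (adjusted p = 0.496) and Creld2, an Atf6 target, at -0.21 (adjusted p = 0.478). The genes called were Atf4, a transcription factor of the integrated stress response, in both models (1.15, adjusted p = 0.0161 in Myh6-tg and 0.75, adjusted p = 0.0227 in E2a-tg) and the cochaperone Dnajb11 in Myh6-tg (0.59, adjusted p = 0.0366).

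Proteases that cut or bind thrombospondins, and their inhibitors, were higher in 9 and lower in 1 of 23 genes in Myh6-tg (median 0.71), and higher in 4 and lower in 2 of 23 in E2a-tg (median 0.22). Mmp3, a stromelysin, rose in both, by 3.86 (adjusted p = 0.00157) in Myh6-tg and 2.91 (adjusted p = 0.0264) in E2a-tg, and so did the inhibitor Timp1, by 2.02 (adjusted p = 0.00680) and 3.36 (adjusted p = 0.0178). Mmp2, a gelatinase cleared with Thbs2, rose in Myh6-tg from 125 ± 18.0 to 545 ± 125 CPM (2.12, adjusted p = 0.00354) and stood at 0.74 in E2a-tg (adjusted p = 0.0568). Mmp14, its membrane-bound activator, rose by 2.22 (adjusted p = 0.0150) and 0.87 (adjusted p = 0.0310). The macrophage elastase Mmp12 rose in E2a-tg (3.54, adjusted p = 0.0160). Adamts7 and Adamts12, which degrade Comp, were not called in Myh6-tg, at -0.03 (adjusted p = 0.965) and 1.21 (adjusted p = 0.116).

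Of 19 other matricellular genes, 12 rose and 0 fell in Myh6-tg (median 1.76), and 4 rose and 0 fell in E2a-tg (median 0.25). Postn (periostin), a product of activated fibroblasts, rose from 86.0 ± 35.8 to 1610 ± 761 CPM (4.23, adjusted p = 0.00391), Wisp2, the older name of Ccn5, by 3.79 (adjusted p = 0.00222) and Sparc by 1.72 (adjusted p = 0.00940). The responses of Postn (difference 3.41, adjusted p = 0.0154), Wisp2 (3.53, adjusted p = 0.00925) and Sparc (1.92, adjusted p = 0.0135) were larger in Myh6-tg than in E2a-tg. Spp1 (osteopontin) rose in both, by 3.33 (adjusted p = 0.0358) and 2.83 (adjusted p = 0.0246), as did Spock2. Spp1 was uneven among the Myh6-tg hearts, at 54.0 ± 66.0 CPM, against 5.35 ± 2.03 in Myh6-control. Tnc (tenascin C) rose in E2a-tg by 1.69 (adjusted p = 0.0456) and stood at -0.04 in Myh6-tg (adjusted p = 0.964), a difference that was not called (adjusted p = 0.197).

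Collagens and matrix proteins that thrombospondins bind rose in 11 of 20 cases in Myh6-tg (median 1.71, 0 lower) and in 1 of 19 in E2a-tg (median 0.50), the one being the proteoglycan Dcn (0.94, adjusted p = 0.0186). Col1a1 rose from 165 ± 17.6 to 711 ± 222 CPM in Myh6-tg (2.11, adjusted p = 0.00515) and Fn1 from 97.0 ± 38.1 to 450 ± 196 (2.22, adjusted p = 0.0139). Col12a1, a fibril-associated collagen of tendon, rose from 2.01 ± 0.924 to 64.1 ± 29.0 CPM (4.99, adjusted p = 0.00227). Col9a2, a partner of Comp in cartilage, rose from 0.766 ± 0.426 to 12.3 ± 9.52 CPM (4.01, adjusted p = 0.0236). Col11a1 had 0 counts in all 3 Myh6-control hearts and 6.94 ± 2.61 CPM in Myh6-tg, at least 103-fold higher than a floor of 3 counts per library. Of 26 other genes with thrombospondin type 1 repeats, 6 rose and 1 fell in Myh6-tg (median -0.05), and 5 rose and 3 fell of 25 in E2a-tg (median 0.26). Cilp, a cartilage matrix protein also made by cardiac fibroblasts, rose in both models, by 4.51 (adjusted p = 0.00588) and 1.55 (adjusted p = 0.0219), and Adamtsl2 (2.09, adjusted p = 0.0160) and Ism1 (3.14, adjusted p = 0.00654) rose in Myh6-tg. Papln fell by 1.41 in E2a-tg (adjusted p = 0.0426), and Cfp, a complement factor of myeloid cells, rose by 1.03 (adjusted p = 0.0216).

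**Figure D5:**
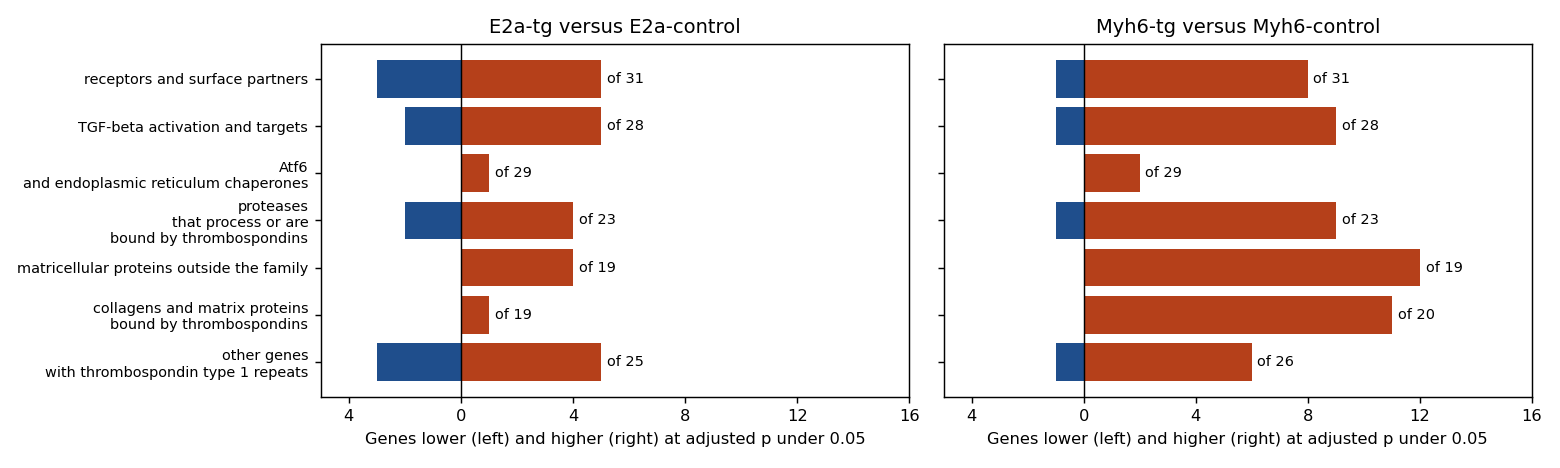
Number of genes called higher (right) and lower (left) in each list of thrombospondin partners and related genes, out of the number tested, in both transgene comparisons. The matricellular (12 of 19) and collagen and matrix (11 of 20) lists have the most genes called higher in Myh6-tg.

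Profiles of log2 CPM over the 12 hearts were also compared among the members themselves. By Pearson, Thbs4 and Comp were the most similar pair (r = 0.977, Spearman rho = 0.832) and Thbs1 and Comp the least (r = 0.756, rho = 0.846). By Spearman, the most similar pair was Thbs1 and Thbs3 (rho = 0.951) and the least Thbs2 and Thbs4 (rho = 0.748). The profiles most like each member by Pearson were then taken from 12564 expressed genes. For Thbs1 they were Scarb2 (r = 0.991, rho = 0.972), Il17ra and Aebp1. For Thbs2 they were Cnppd1 (r = 0.985, rho = 0.874), Itga5 and Rab5a, and for Thbs3 Sfxn3 (r = 0.990, rho = 0.965), Slc35e4 and Flnc. For Thbs4 they were Col9a2 (r = 0.986, rho = 0.958), Arf6 and Eif2b2, and for Comp they were Eif2s2 (r = 0.981, rho = 0.615), Ppp1r15b and Thbs4. The hearts fall into 4 groups and the Myh6-tg hearts stand far from the rest, so these values describe shared group differences.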

How the data were processed

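Gene counts and FPKM values were deposited by the authors for 12 hearts in whole-series tables. Reads from NEBNext Ultra libraries were processed by the authors with HISAT2 (2.0.4) and StringTie (2.2.1), as listed in the submitters' processing notes, which also list DESeq2. The counts are whole numbers without normalization, and the FPKM values are scaled by the authors to transcript length and library size. No value column was left unmapped (0). The authors' fold changes and p-values were not used. Gene positions are from GENCODE M21 (GRCm38).

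Counts were analysed with edgeR 4.0.16 in R 4.3.3 (filterByExpr, TMM, quasi-likelihood F test, Benjamini-Hochberg adjustment over all genes tested), on the 6 hearts of each comparison, or on all 12 for the difference of responses. The SE printed with an edgeR log2 change is that change, without its sign, over the square root of its F statistic. Printed CPM are counts over TMM-scaled library sizes. TMM factors ranged from 0.825 to 1.30, alongside mitochondrially encoded transcripts, which made up 17.3% ± 1.62 (SD, n = 3) of counts in Myh6-tg and 35.9% ± 3.56 in Myh6-control. The step was tested on simulated data. Alternatives used DESeq2 1.42.0 and limma 3.58.1 on log2(FPKM + 1), among others. Depth limits precision for counting error only, and p-values measure the spread between these hearts.

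In the Myh6 groups, same-numbered hearts deviated together (correlations 0.285, 0.184 and 0.173 over 15929 genes), so a replicate block was added as an alternative. The pairing comes from the data and from sex, which follows replicate 1. Named genes were the 5 members, 26 core partners, 3 label checks, and in each list and comparison the 3 largest called changes with a mean of at least 1 CPM. The 3 most similar profiles per member were named as well. A core partner is not reported here. Members and lists were chosen with earlier results of these data known. Motifs were chosen after the data were seen. Sequence identity of the proteins was not analysed here.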

Additional observations from a re-analysis of the deposited data

Results flagged for a closer look

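Thbs2, Thbs4 and Comp had responses that differed between the models by the test of the difference itself (edgeR over 12 hearts). The log2 fold change in Myh6-tg exceeded that in E2a-tg by 1.86 ± 0.27 for Thbs2 (SE, adjusted p = 0.00582), by 4.59 ± 1.08 for Thbs4 (adjusted p = 0.0357) and by 5.43 ± 1.19 for Comp (adjusted p = 0.0263). The call for Thbs2 held in all 12 fits that left out a heart, that for Thbs4 in 1 and that for Comp in 3, and limma on FPKM called neither Thbs4 (adjusted p = 0.0797 to 0.155) nor Comp (0.0914 to 0.181). Each of the 3 members was higher in 3 of 3 tg hearts than in all controls of its model, as were 20.3% of all genes tested in E2a-tg and 20.6% in Myh6-tg. Groups of 3 are too small for a test of single outlying hearts, so the low Thbs4 and Comp values of Myh6-tg replicate 1 are given as values only. That heart also differed in sex from the other Myh6-tg hearts, which cannot be told apart from its other differences.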

How the results depend on the processing

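With 3 hearts a group, single hearts set many calls. Leaving out each heart in turn gave 0 to 4 members called in E2a-tg (0 to 4079 genes in all), 3 to 5 in Myh6-tg (798 to 4269 genes), 1 to 3 for the difference of responses (293 to 1727 genes) and 0 between controls (3 to 98 genes). No fold change of a member in either transgene comparison changed sign in any fit. Between controls, Comp changed sign without Myh6-control replicate 3, to -0.23 (adjusted p = 0.825, range -0.23 to 0.29). In E2a-tg, against 3 members and 2527 genes, one fit over all 12 hearts called 1 member and 227 genes, the replicate block 0 and 1, limma without a filter 0 and 1, the stricter threshold of adjusted p under 0.01 and a log2 change of 1 or more 0 and 0, with 5204 genes at an unadjusted p under 0.05, and a covariate for replicate 1 called 1680 genes. In Myh6-tg, against 2805 genes, one fit over 12 hearts called 5049, limma on log2(FPKM + 1) 4228, and the stricter threshold 608 and 3 members. For the difference, limma with a pseudocount of 0.1 or without a filter and the stricter threshold each called 1 member, the last with 99 genes against 624, and DESeq2 called 1396 genes. Between controls, against 0 members and 5 genes, DESeq2 called 1 and 429, no filter 65 genes, the replicate block 27, the replicate 1 covariate 13, NewGene loci left out 3, and limma 8 with a pseudocount of 0.1 and 1 without a filter. The cause was not tested. The log2(FPKM + 1) scale moved the median of all genes to 0.34 in Myh6-tg and 0.16 in E2a-tg, with 3328 genes higher and 900 lower against 1370 and 1435, and 2361 and 667 against 1289 and 1238. In E2a-tg same-numbered hearts did not deviate together (correlations 0.060, -0.070 and -0.050), so its numbers do not pair the hearts, although replicate 1 differs in sex from the others there as well. The replicate block changed no call of a member in the Myh6 comparison, in the difference or between controls. Shares of the family taken from counts in place of FPKM moved by over 1 SD in 13 of 20 cases.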

Other observations

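Some single genes of the fibroblast and tendon marker lists were lowest in replicate 1 of the Myh6-tg hearts, as were Thbs4 and Comp. They were chosen after their values were seen. Chad (chondroadherin) stood at 0.0427 CPM in Myh6-tg replicate 1 and at 4.32 and 4.12 in the others, against 0 to 0.0569 in Myh6-control. Meox1, a homeobox gene of activated cardiac fibroblasts, stood at 20.3 CPM in replicate 1 and at 83.5 and 89.0 in the others. In Myh6-control it was 24.5 to 33.6 CPM. Replicate 1 thus lay above all Myh6-control hearts for Thbs4 and Comp but not for Chad or Meox1. Acta2, the smooth muscle actin of myofibroblasts, was highest in replicate 1 of the Myh6-tg hearts, at 223 CPM, against 144 and 121 in the others. No test was run on these values.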
